A study of Canis lupus familiaris with 12 samples.

Results

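The miR-148/miR-152 family comprised 3 of the 453 canine miRNAs listed in the small RNA count table, namely cfa-miR-148a, cfa-miR-148b and cfa-miR-152. All 3 were among the 284 miRNAs with enough reads to enter the fit. Its members were chosen by name because they share a seed, and the family was chosen because miR-152 had a lower count in one of the lines compared here, so its levels are given as a description with no test. The comparison was of 2 cell lines, with 3 small RNA libraries each. CHMm is a line of canine mammary gland tumor cells taken from a metastatic lesion, and it served as the untreated parental line. CHMmTAM was derived from it by exposure to a rising concentration of tamoxifen (TAM), an antagonist of the estrogen receptor in breast tissue. The exposure lasted 10 months, until the cells grew in 10 μM TAM, which was kept for 1 month more and withdrawn for 1 week before the experiments. Both lines were grown in DMEM without phenol red and with 10% charcoal-stripped serum. CHMmTAM is 1 derived line, so that resistance and drift during the long culture cannot be told apart. The labels name 3 replicates of each line and do not say that they were separate cultures, so every p-value below measures only the spread between these libraries, which may be technical.

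A miRNA guides the silencing complex to mRNAs that pair with its seed, the short stretch near its 5′ end, and miRNAs with one seed are expected to bind largely the same sites. miR-148a, miR-148b and miR-152 carry the same seed and are transcribed from separate genes. miR-148a is abundant in many epithelia, in liver and in milk, and the DNA methyltransferases DNMT1 and DNMT3B are among the best known targets of the family. The question asked of the data was whether the lower miR-152 of CHMmTAM altered the summed level of this shared seed.

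The mature sequences of the members are not printed here. Shown instead is the primer the study listed under the name miR-152, because the same 25 bases were also listed for another target. The other listed primers that share its bases are shown with it. Whether these bases match mature miR-152 or mature miR-34b was not checked here, so they are not to be read as miR-152 sequence. Capitals mark the first 22 bases, which the forward primers have in common, and lower case marks all other bases.
miR-152 primer: AGGCAGTGTAATTAGCTGATTGtca
miR-34b primer: AGGCAGTGTAATTAGCTGATTG
lnc-48177 forward primer: AGGCAGTGTAATTAGCTGATTGtca
lnc-48177 reverse primer: tgacaatcagctaattacactgcct
The primer listed for miR-152 and the forward primer listed for the long noncoding RNA lnc-48177 were identical over all 25 bases. The reverse primer of lnc-48177 was the reverse complement of the same 25 bases. The 22 bases listed for miR-34b were the first 22 bases of the miR-152 primer. The list held 32 primers for 21 targets, 10 of them single primers for miRNAs, and gave no primer for miR-148a or miR-148b. The PCR measurements made with these primers were not analysed here, and the values below come from sequencing only.

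The 6 libraries held 7512659 to 12482211 counted reads. One miRNA, the oncogenic miR-21, took 50.2% to 51.7% of the reads in CHMm and 53.7% to 54.5% in CHMmTAM. Levels in this paragraph are counts per 1000000 reads (CPM) of the library size after the TMM scaling described below. The epithelial miRNAs (the miR-200 cluster members, miR-203 and miR-205) were measured in both lines, all 7 of 7. Their summed level was 25124 to 26471 CPM in CHMm and 22450 to 23736 CPM in CHMmTAM. The 7 did not move together. Lower in CHMmTAM were miR-205 (5998 and 3802 CPM, log2 fold change -0.66) and miR-203 (-0.24). Higher were miR-429 (0.36), miR-200a (0.27) and miR-200b (0.21), while miR-141 (-0.09) and miR-200c (-0.06) differed least. Markers of other cells were low: the sum of the blood miRNAs reached 8.52 CPM at most, the mesenchymal sum 47.6 CPM and the liver miRNA miR-122 4.65 CPM, and the endothelial miR-126 had no read in CHMm and 0.0783 to 0.272 CPM in CHMmTAM. The muscle list ran from 276 to 314 CPM in CHMm and from 417 to 429 CPM in CHMmTAM, most of it miR-499. Its scarcer members miR-1 (3.40 and 15.2 CPM, log2 fold change 2.19) and miR-133a (2.94 and 12.8 CPM, log2 fold change 2.11) were both past the thresholds described below and higher in CHMmTAM. The blood sum was 3.80 to 4.92 CPM in CHMm and 6.97 to 8.52 CPM in CHMmTAM, and the mesenchymal sum 39.7 to 47.6 and 23.8 to 28.8 CPM. The part of these differences in the results below was not tested. In bulk libraries, fewer cells that hold a miRNA and less of it per cell cannot be told apart.

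miR-148a was the dominant member. Its levels after TMM scaling, which sets libraries on a common scale by their typical miRNA, were 21545, 21415 and 22905 CPM in the 3 CHMm libraries and 15108, 17188 and 15380 CPM in the 3 CHMmTAM libraries. Every CHMmTAM library was below every CHMm library. The mean was 21955 ± 825 CPM in CHMm and 15892 ± 1130 CPM in CHMmTAM (SD, n = 3 each), a log2 fold change of -0.47 with a standard error (SE) of 0.06, or 1.38-fold more in CHMm. It rested on 122413 to 248742 reads per library. miR-148a stood at rank 7 of the tested miRNAs in CHMm and at rank 10 in CHMmTAM. In CHMm it lay below miR-27a, with 26213 ± 2907 CPM, and just above let-7f, with 21788 ± 1219 CPM. The gap to let-7f was within their SDs, and that to miR-27a was larger than the SDs of both added together.

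miR-148b lay about an order of magnitude lower and differed between the lines in the other direction. Its levels were 1221, 1049 and 1206 CPM in CHMm and 1437, 1453 and 1476 CPM in CHMmTAM. The lines did not overlap, with the lowest CHMmTAM library above the highest CHMm library. The mean was 1159 ± 95 CPM in CHMm and 1455 ± 19.8 CPM in CHMmTAM (SD, n = 3 each), a log2 fold change of 0.33 (SE 0.07). The reads behind it numbered 8929 to 18352 per library. With upper-quartile scaling the lines overlapped, at 1133 to 1331 CPM in CHMm and 1290 to 1399 CPM in CHMmTAM, and the log2 fold change was 0.09. Its rank was 46 in CHMm and 42 in CHMmTAM, and its CHMm neighbours miR-128 (1213 ± 58.8 CPM) and miR-9 (1099 ± 20.6 CPM) were within the spread of the replicates.

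miR-152 was the scarcest member by far. It had 127, 196 and 174 reads in CHMm and 28, 14 and 15 reads in CHMmTAM. These came to 17.4, 16.9 and 19.4 CPM in CHMm and to 2.19, 1.27 and 1.88 CPM in CHMmTAM. All 6 libraries were above the level of 3 reads (0.24 to 0.399 CPM), and the lines were far apart. The 95% Wilson intervals of its share of all reads did not meet either, the lowest bound in CHMm being 14.2 CPM and the highest in CHMmTAM 3.24 CPM. Such intervals cover counting error only, since reads are not independent molecules. The mean was 17.9 ± 1.37 CPM in CHMm and 1.78 ± 0.470 CPM in CHMmTAM (SD, n = 3 each), with a log2 fold change of -3.31 (SE 0.20). Its rank went from 145 to 199. In CHMm its level was within the spread of miR-146a (18.2 ± 2.28 CPM). The gap to miR-8859b (15.4 ± 2.06 CPM) was larger than the SD of either and smaller than both SDs added together.

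**Figure D1:**
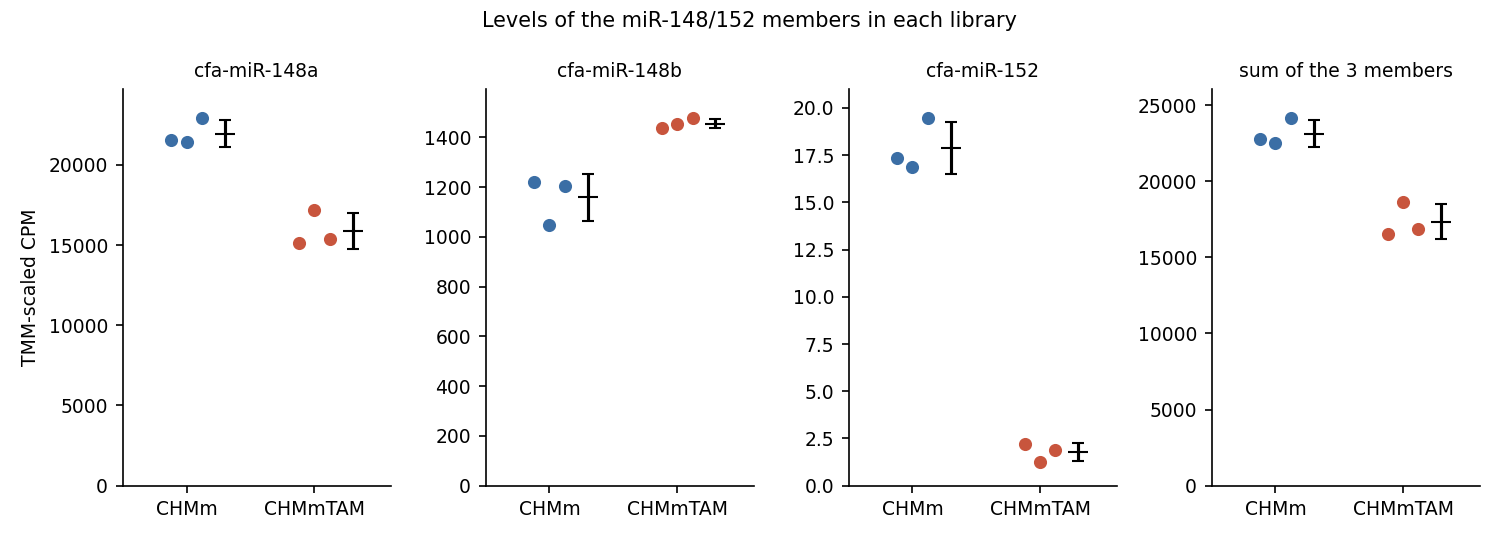
TMM-scaled CPM of each member and of their sum in the 3 CHMm and 3 CHMmTAM libraries, each panel on its own linear axis from 0, with points for libraries and bars for the mean and SD. miR-148a, miR-152 and the sum are lower in every CHMmTAM library, and miR-148b is higher in every CHMmTAM library.

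Among the 3 members, only miR-152 had a log2 fold change beyond 1 in either direction. No call is read for the members, and smaller log2 fold changes in miR-148a and miR-148b do not mean equal levels. The thresholds used for a call were an adjusted p (FDR) below 0.05 and a log2 fold change beyond 1 in either direction. Over all tested miRNAs, 32 of 284 (11.3%) were past both. By FDR alone, 25.4% of all tested miRNAs were higher in CHMmTAM and 18.7% were lower, a balance that turned with the scaling (72 higher and 53 lower with TMM, 64 and 73 with RLE size factors, 41 and 100 with upper-quartile factors). The lines did not overlap in any of the 3 members, against 147 of 284 tested miRNAs (51.8%). Because this contrast chose the family, nothing is read from its counts. Over the tested miRNAs as a whole, the median log2 fold change was 0.06.

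**Figure D2:**
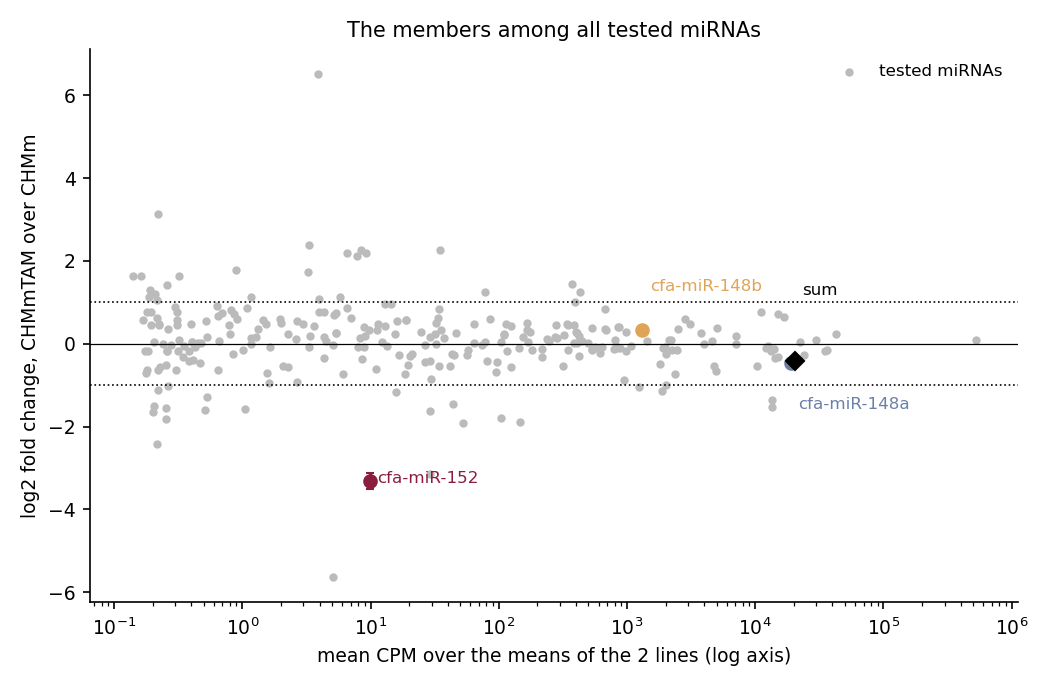
Log2 fold change of CHMmTAM over CHMm against mean CPM (log axis) for the 284 tested miRNAs in grey, with the members in color (bars are 1 SE), the sum as a black diamond and dotted lines at a log2 fold change of 1 and -1. miR-152 lies at -3.31 among scarce miRNAs, while miR-148a at -0.47 and the sum nearly coincide among the abundant ones.

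The summed seed level was lower in CHMmTAM. The 3 members together gave 22783, 22482 and 24130 CPM in CHMm and 16547, 18642 and 16858 CPM in CHMmTAM, again with no overlap. The mean was 23132 ± 878 CPM in CHMm and 17349 ± 1131 CPM in CHMmTAM (SD, n = 3 each). This was a difference of -5783 CPM and a log2 fold change of -0.42 (SE 0.06), or 1.33-fold more of the seed in CHMm. As a share of all counted reads, the family made up 2.22%, 2.28% and 2.45% in CHMm and 1.69%, 1.86% and 1.65% in CHMmTAM. Across 5 scalings, the log2 fold change of the sum ran from -0.66 to -0.42, and the lines overlapped under none of them.

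miR-152 had almost no part in that difference. In CPM, miR-148a accounted for -6063 of the -5783, miR-148b for 297 in the other direction and miR-152 for -16.1. The miR-152 part was 0.279% of the change of the sum and -0.0697% of the CHMm sum. The SD of the sum between replicates was 54.5 times as large in CHMm and 70.2 times as large in CHMmTAM, so a difference of the size seen for miR-152 was far below what the replicates could resolve in the sum. With miR-152 left out, the sum had a log2 fold change of -0.41 (SE 0.06), and adding miR-152 moved it by -0.000968. The higher miR-148b offset -4.89% of the miR-148a part. With miR-148a left out, the sum of miR-148b and miR-152 was higher in CHMmTAM, by a log2 fold change of 0.31 (SE 0.07), though with upper-quartile scaling this was 0.07 (SE 0.07).

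The composition of the seed pool also differed between the lines, and as a ratio within each library it needs no scaling between libraries. miR-148a made up 94.6%, 95.3% and 94.9% of the family's reads in CHMm and 91.3%, 92.2% and 91.2% in CHMmTAM. miR-148b made up 5.36%, 4.67% and 5.00% in CHMm and 8.68%, 7.80% and 8.76% in CHMmTAM. There were thus 19.0 ± 1.38 reads of miR-148a per read of miR-148b in CHMm and 10.9 ± 0.787 in CHMmTAM (SD, n = 3 each), with no overlap between the lines.

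miR-152 held a share of 0.0762%, 0.0751% and 0.0806% of the family's reads in CHMm. In CHMmTAM its share was 0.0132%, 0.00681% and 0.0112%. The 95% Wilson intervals of these shares ran from 0.0641% to 0.0935% over the CHMm libraries and from 0.00406% to 0.0191% over the CHMmTAM libraries, with no overlap. Put the other way, 1 read in 1241 to 1332 of the seed pool was miR-152 in CHMm, and 1 in 7549 to 14688 in CHMmTAM. Mature miRNAs differ little in length, but the efficiency of adapter ligation differs between sequences, so ratios between members hold for reads and not for molecules, whereas each ratio can be compared between the lines. How reads that match more than 1 member were assigned is not given in the sources used here. Because miR-148a had 122413 reads or more in each library and miR-152 had 14 to 28 in CHMmTAM, such reads could alter the miR-152 level and share, and this was not tested.

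**Figure D3:**
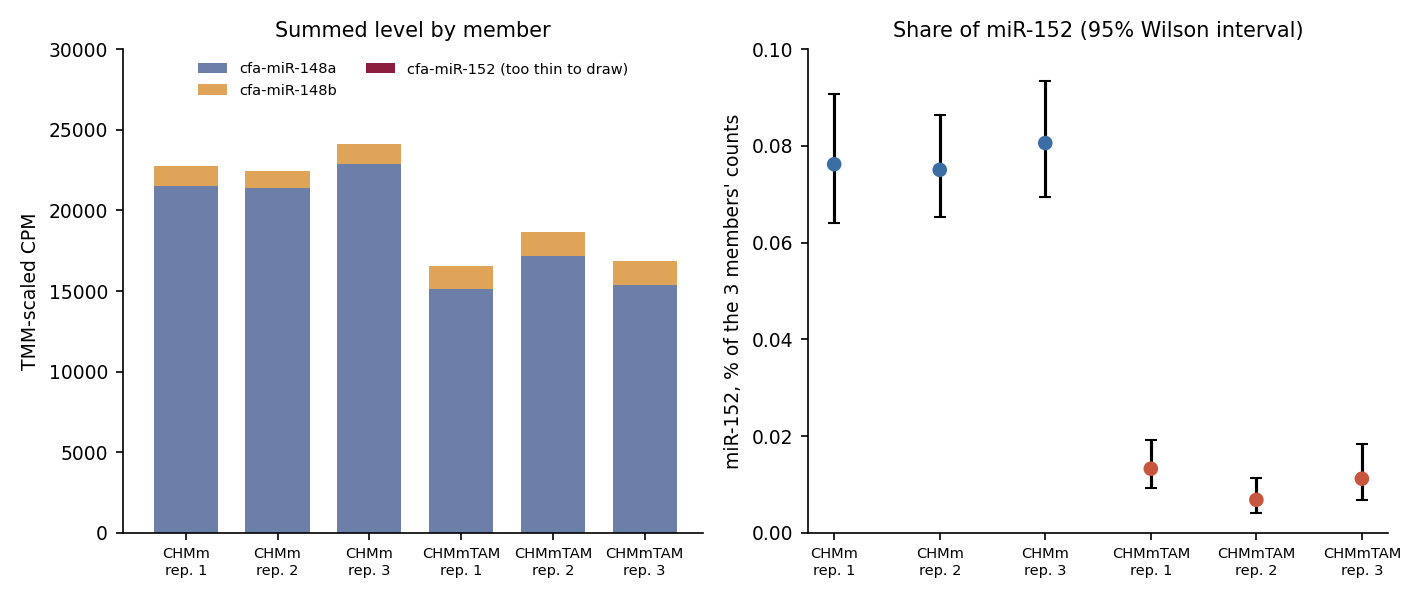
Left, TMM-scaled CPM of the family in each library, stacked by member from 0. Right, miR-152 as a percent of the family's reads in each library, with 95% Wilson intervals, which lie between 0.0641% and 0.0935% in CHMm and between 0.00406% and 0.0191% in CHMmTAM.

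The direction of each member was the same under all 16 settings of scaling, filter, tool and libraries. Over the 5 scalings the log2 fold change ran from -0.71 to -0.47 for miR-148a, from 0.09 to 0.33 for miR-148b and from -3.55 to -3.31 for miR-152. Leaving out 1 library at a time gave -0.53 to -0.41, 0.27 to 0.37 and -3.51 to -3.10 in the same order. The scalings moved the members by similar amounts, and miR-148b, with the smallest difference, came nearest to 0.

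**Figure D4:**
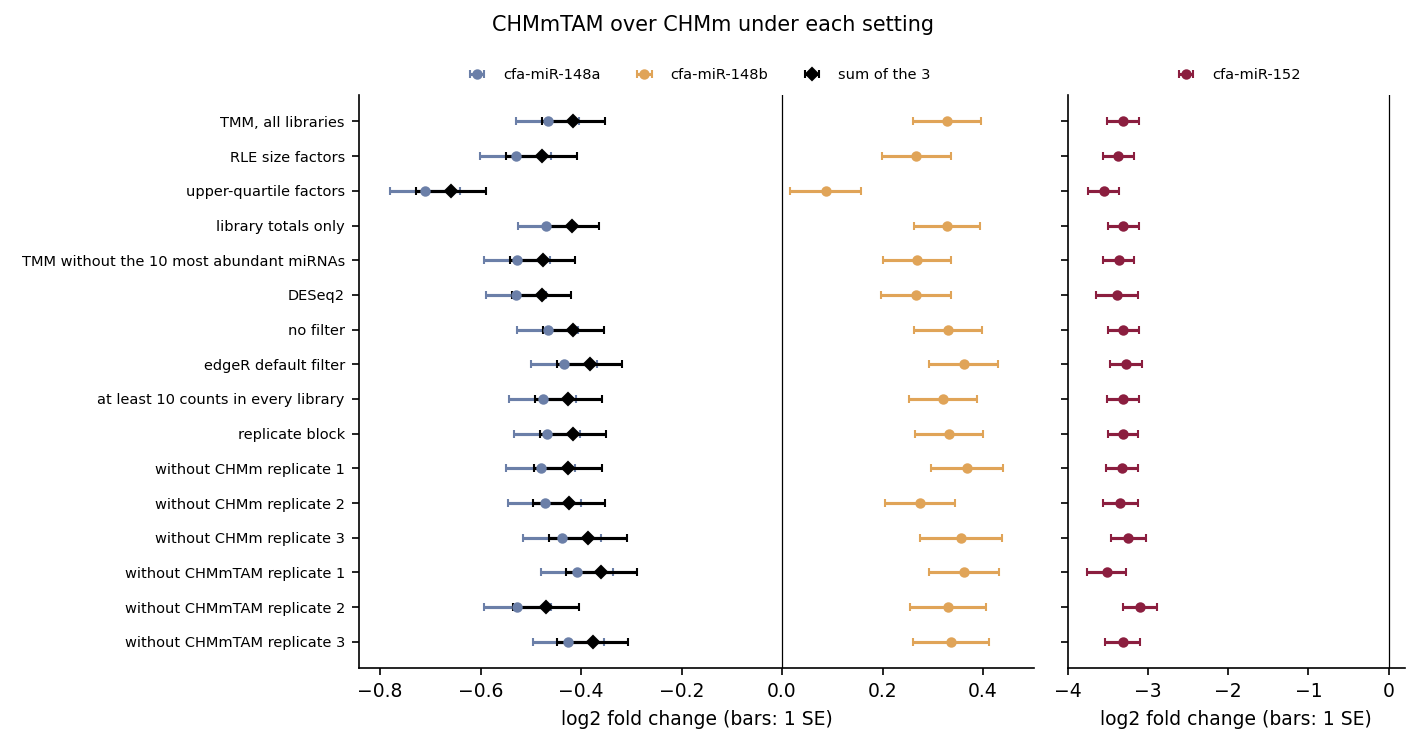
Log2 fold change of CHMmTAM over CHMm for miR-148a, miR-148b and the sum (left) and for miR-152 (right, on its own axis) under each of 16 settings, with bars of 1 SE. Upper-quartile scaling moves the points of the left panel furthest, to -0.71 for miR-148a, 0.09 for miR-148b and -0.66 for the sum.

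Other abundant families were set beside it, grouped by the number in their names, whereas this family was joined across numbers by its seed. The 3 nearest in summed CHMm level were miR-30, miR-26 and miR-125. The miR-30 sum was 18148 ± 533 CPM in CHMm and 16990 ± 567 CPM in CHMmTAM, a log2 ratio of -0.10, and miR-30d made up 69.3% of it. The miR-26 sum was 17737 ± 1122 and 12214 ± 665 CPM, a log2 ratio of -0.54, with miR-26a at 68.4%. The miR-125 sum was 17172 ± 186 and 14633 ± 655 CPM, a log2 ratio of -0.23, although its minor member miR-125a, at 15.0%, had a log2 fold change of -1.13. The leading member of miR-148/miR-152 thus held a larger share of its family than that of any of these 3. This was not particular to the family. In the families next in level, miR-29 and miR-200, the leading shares were larger, with miR-29a at 96.0% and miR-200c at 96.5%.

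Of 36 such families with at least 2 tested members, 8 had a member past both thresholds. This family is among the 8 only through miR-152, the member that chose it, so its place there is not read as a result. In 2 of the 8 the most changed member was also the most abundant one. The sum moved by more than 1 on the log2 scale in 3 of the 8, namely miR-10 (1.43), miR-146 (-1.08) and miR-133 (2.17). The excess in size of the most changed member's log2 fold change over the log2 ratio of the sums was 2.89 for miR-148/miR-152. This was the widest of the 36, followed by 1.64 for miR-34, in which miR-34c (log2 fold change 2.26) made up 3.90%. miR-152 was the only such member of the 8 with under 1% of its family in CHMm. This family was chosen for its lower miR-152 and joined across numbers, while the others were grouped by number. Grouped by number alone, miR-152 would stand by itself and not enter this order. The place of the family in it thus follows from how it was chosen and joined, and is given as a description.

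**Figure D5:**
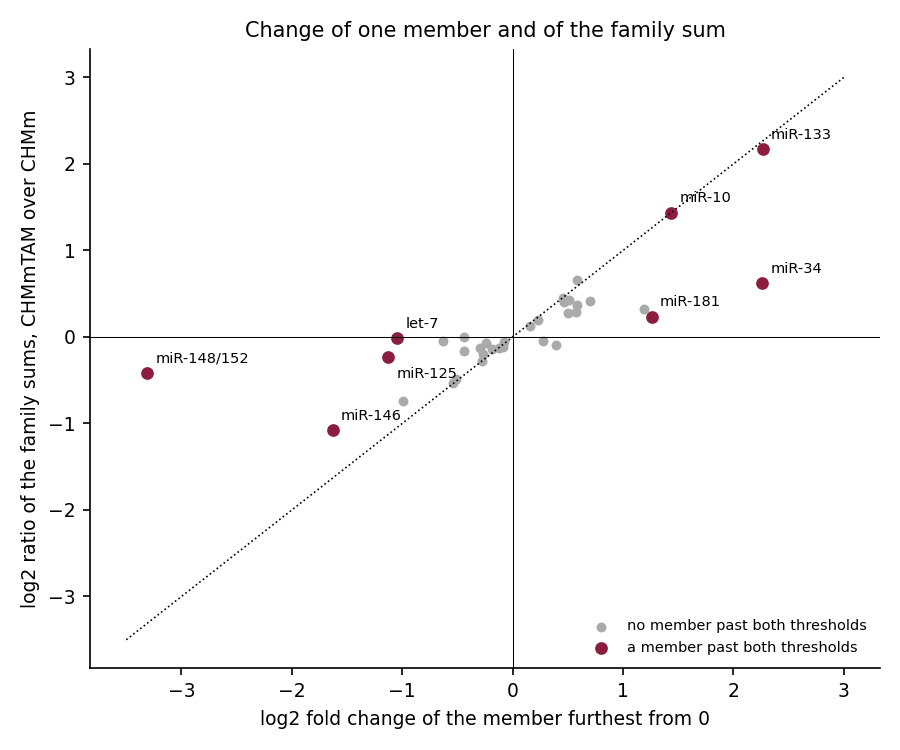
Log2 ratio of the family sums against the log2 fold change of the member furthest from 0, for 36 families, with a dotted line of equality. Families that hold a called member are in color, miR-148/miR-152 only through the miR-152 that chose it. miR-148/miR-152, chosen for its lower miR-152 and joined across numbers, lies furthest from the line, at -3.31 for miR-152 and -0.42 for the sum.

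The miRNAs with the pattern nearest to that of miR-152 were sought by the root mean square difference of log2(CPM + 1), centred on the CHMm mean, over the 6 libraries. The nearest was miR-184, at 0.296, with 52.7 CPM in CHMm and 5.92 CPM in CHMmTAM. Next came miR-204 at 0.370, the miRNA at the center of the study's own work, with 9.99 CPM in CHMm and 0.185 CPM in CHMmTAM, the latter below the level of 3 reads. Its log2 fold change was -5.64, against -3.31 for miR-152. The 1 added to each CPM narrows that gap at such low levels, so this closeness rests in part on the measure. miR-218, miR-210 and miR-375 followed at 0.680, 0.684 and 0.742, a clear step further away. No member of its own family was among these 5.

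The pattern of the sum was shared by miRNAs of modest difference. The 5 nearest were miR-502 (0.0849), miR-708 (0.0879), miR-421 (0.0902), miR-29c (0.0926) and miR-362 (0.0942). Among them miR-708 was the most abundant, at 2123 CPM in CHMm and 1515 CPM in CHMmTAM. miR-29c, of the miR-29 family that also targets DNA methyltransferases, had 30.7 CPM in CHMm and 22.6 CPM in CHMmTAM. Likeness over 6 libraries of 2 lines is mostly likeness of 1 difference, and is given as a description.

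In the canine RefSeq gene table of assembly UU_Cfam_GSD_1.0, the 3 members lie on separate chromosomes in similar surroundings. MIR152 is on chromosome 9 within COPZ2, and MIR148B is on chromosome 27 within COPZ1, genes for the paralogous zeta subunits of the COPI vesicle coat. MIR148A is on chromosome 14, outside any protein-coding gene. Genes of the NFE2 family lay near each of them (NFE2L1 near MIR152, NFE2 near MIR148B, NFE2L3 near MIR148A), as did chromobox genes (CBX1, CBX5 and CBX3). The mRNA levels of the host genes were not analysed here, and the counts are of mature miRNAs, so transcription of COPZ2 and processing of miR-152 cannot be told apart.

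Other miRNAs known to target DNA methyltransferases were described beside the family. Of 7 such miRNAs 6 were tested. By edgeR's quasi-likelihood test 0 of the 6 were past both thresholds, as by DESeq2, beside 11.3% of all tested miRNAs, and 4 had an unadjusted p below 0.05, beside 49.6%. By FDR alone 2 were higher in CHMmTAM (miR-185 and miR-342) and 2 were lower (miR-29a and miR-29c), beside 25.4% and 18.7% of all tested miRNAs. With RLE or upper-quartile factors, with TMM without the 10 most abundant miRNAs and with DESeq2, 3 were lower, miR-29b being the third. miR-29a, the most abundant, went from 14125 ± 502 to 12571 ± 351 CPM (log2 fold change -0.17, edgeR adjusted p = 0.0196). miR-185 went from 611 ± 34.2 to 773 ± 52.1 CPM (log2 fold change 0.34, edgeR adjusted p = 5.37e-06). With upper-quartile scaling it was no longer past the FDR threshold. The median log2 fold change of the 6 was 0.11, beside 0.06 for all tested miRNAs, and it was -0.14 with upper-quartile scaling.

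The miRNAs of the HOX clusters were the second list, since in mammals the genes of the 3 members lie on the same chromosomes as HOX clusters. The list was not limited to the clusters on those chromosomes. Whether each listed miRNA, miR-10b among them, shares a chromosome with a member was not checked here. All 5 were tested. miR-10a and miR-10b, 2 of the 5, were past both thresholds and higher, beside 5.99% of all tested miRNAs, and by FDR alone 1 of the 5, miR-196b, was lower, beside 18.7%. miR-10b went from 203 ± 7.56 to 549 ± 38.7 CPM (log2 fold change 1.43, edgeR adjusted p = 1.37e-70). miR-10a had only 1, 12 and 8 reads in CHMm and 24, 12 and 16 in CHMmTAM, and its call was lost under 3 of the other scalings and by DESeq2. The 2 most abundant were miR-196a, at 491 ± 30.7 and 494 ± 9.82 CPM (log2 fold change 0.01, edgeR adjusted p = 0.960), and miR-196b, at 463 ± 23.8 and 378 ± 14 CPM (log2 fold change -0.29, edgeR adjusted p = 0.00017). The median log2 fold change of the 5 was 0.01, and -0.23 with upper-quartile scaling, under which miR-196a also was lower by FDR.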

How the data were processed

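Small RNA of 3 CHMm and 3 CHMmTAM libraries was analysed; the RNA-seq libraries of both lines are not analysed here. The authors deposited whole-number read counts per named mature miRNA, with no normalization. The submitters' processing notes name HISAT2 2.0.4, BWA and CanFam3.1 without their roles. Members and lists were chosen with earlier results of these data known. Of 453 miRNAs, 284 with at least 10 counts in total were fitted with edgeR 4.0.16 (quasi-likelihood, TMM, line as the only term, R 4.3.3), with Benjamini-Hochberg adjustment over the 284 and calls made past both an FDR of 0.05 and a log2 fold change of 1 or -1. The fit was run on simulated data with 1 common dispersion. The error allowed there for the sum was larger than the change reported for it, so that run says nothing about the sum. For the sum, the members' counts were added per library and fitted as 1 row with the same scaling. Members carry no p, since this contrast chose them. The SEs of edgeR fits were worked back as the size of the log2 fold change over the square root of its quasi-likelihood F statistic. They are given as a spread and not as a test. Named besides the members were the nearest miRNAs by pattern and rank, the families nearest in level, the listed miRNAs' most abundant and the genes around the members. Families were planned by seed and grouped by the number in the name instead, because mature sequences were not used here. The gene table is of another assembly than the notes name, so no positions are given. Replicates differed by more than sampling noise, with a chi-square of 26.3 to 85.8 for each degree of freedom. Depth was 7512659 to 12482211 counts per library, which makes 3 counts equal to 0.24 to 0.399 CPM. Alternatives were 4 other scalings, DESeq2 1.42.0, 3 other filters, a replicate block, each library left out, other thresholds and other sums.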

Additional observations from a re-analysis of the deposited data

How the results depend on the processing

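Of the values reported, most kept their direction and size. With upper-quartile scaling the log2 fold change of the sum was -0.66 against -0.42, and its change was -9226 CPM against -5783 CPM. The cause was not tested. Under it the median over the tested miRNAs was -0.18 in place of 0.06 (log2), and the 34 calls were 12 higher and 22 lower, against 17 higher and 15 lower among the 32 calls of the TMM fit. An FDR below 0.05 alone gave 125 calls (72 higher, 53 lower), as fewer conditions were asked, and with upper-quartile factors 141 (41 higher, 100 lower). Without miR-148a the sum turned to 0.31, since miR-148a makes up most of it (0.07, SE 0.07, with upper-quartile scaling), and the share of miR-152 became 1.52% in CHMm and 0.122% in CHMmTAM. Other settings gave 24 to 34 calls. Leaving out 1 library at a time gave log2 fold changes of the sum from -0.47 to -0.36, changes from -6440 to -5043 CPM and 30 to 34 calls. Between libraries of the same replicate number the correlations of deviations were 0.06, 0.46 and -0.31. They do not settle whether the numbers pair the libraries. With the replicate block there were 31 calls and a sum of -0.42. Summing other arms added no row, as none begins with these names. Depth limits miR-152 in CHMmTAM, where each library held 14 to 28 reads.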
